A study of Mus musculus with 9 samples.

Results

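The genes described here are the transcriptional effectors YAP and TAZ, encoded by Yap1 and Wwtr1, their DNA-binding partners Tead1, Tead2, Tead3 and Tead4, the regulators Lats2, Amotl1 and Amotl2, and the target gene Ankrd1. They were chosen by symbol as genes of the pathway and are 10 of the 35896 genes measured. Poly-A RNA was sequenced from the mouse embryonic stem cell line E14 in 9 libraries, 3 per group, with replicate numbers that pair the groups. All cells grew on gelatin in medium with fetal bovine serum, and all come from this one line. The control +LIF2i group stayed in self-renewal medium, which adds the cytokine LIF, the MEK inhibitor PD0325901 at 1 µM and CHIR99021, an inhibitor of glycogen synthase kinase-3β, at 1 µM. The control -LIF2i group had all of these removed for 72 h, which lets the cells differentiate without a directing signal. The CK666 -LIF2i group had them removed for the same 72 h and received 80 µM CK666 from the time of removal, a compound that inhibits the Arp2/3 complex, the nucleator of branched actin filaments. CK666 came from a stock in DMSO, and solvent in the control medium is not mentioned in the labels, so drug and solvent cannot be told apart.

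In the Hippo pathway the kinases MST1 and MST2, encoded by Stk4 and Stk3, activate LATS1 and LATS2, which phosphorylate YAP and TAZ so that both stay in the cytoplasm or are degraded. Unphosphorylated YAP and TAZ enter the nucleus, where they bind TEAD proteins and switch on genes such as Ccn1, Ccn2 and Ankrd1. Tension in the actin cytoskeleton promotes their nuclear entry, and angiomotins (AMOT, AMOTL1 and AMOTL2) bind YAP and can hold it outside the nucleus. LATS2 and AMOTL2 are both inhibitors and products of the pathway. In the early mouse embryo TEAD4 with nuclear YAP specifies the trophectoderm. RNA levels, the only measure here, do not show where YAP is in the cell or whether it is phosphorylated.

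Each library held between 16894327 and 22550952 estimated counts. Values below are CPM, in which the counts of each library are brought to one total with the TMM correction, and a level of 3 counts corresponds to 0.133 to 0.178 CPM. The test was edgeR's quasi-likelihood test with the replicate number as a block, and genes with a Benjamini-Hochberg adjusted p under 0.05 were called. The 9 embryonic stem cell markers, among them Pou5f1, Sox2 and Nanog, were all detected, and their summed level was 4858 to 6942 CPM with LIF2i, 2279 to 2723 CPM without it and 2593 to 3481 CPM with CK666. In the controls without LIF2i, 7 of the 9 were called lower than with it, where 19.7% of all tested genes were. Utf1 was called higher (21.1% of all tested genes were), at 30.2, 60.5 and 72.7 CPM with LIF2i and 238.6, 453.4 and 347.0 CPM without it. Replicate 1 stood apart from the others: its libraries had 15690, 17295 and 17605 genes above 0 (with LIF2i, without it and with CK666), against 18166 to 18749 in the other libraries. In bulk RNA, a change in the share of cells that express a gene and a change in the RNA per cell cannot be told apart.

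Over the 72 h without LIF2i, the control cells changed the make-up of the pathway and not only its level. Yap1, Tead2, Tead3, Lats2, Amotl1 and Amotl2 rose, Tead4 and Tead1 fell, and Wwtr1 and Ankrd1 did not pass the test. Thus 8 of the 10 genes were called, where 40.7% of the 14648 tested genes were; 6 rose, against 21.1% of tested genes, and 2 fell, against 19.7%. The median log2 fold change of the 10 genes was 0.84, and that of all tested genes was 0.0062. Without the replicate block 5 of the 10 passed, since the calls of Yap1 (adjusted p = 0.0595), Tead1 (0.15) and Amotl1 (0.0985) were lost, and 3509 of the 14648 tested genes were called in place of 5967.

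Yap1 (GRCm38 chr9:7931999-8004596, minus strand) was at 208.63, 160.01 and 138.07 CPM in replicates 1, 2 and 3 with LIF2i, at 297.00, 269.58 and 227.21 CPM without it, and at 304.05, 212.78 and 238.71 CPM with CK666. The 3 withdrawn control libraries all lay above the 3 self-renewing ones, and the CK666 libraries spanned about the range of the withdrawn controls. The log2 fold change on withdrawal was 0.66 (SE 0.12, adjusted p = 0.0023 in edgeR), higher in 3 of 3 pairs. Its paralog Wwtr1 (chr3:57455649-57575910, minus strand) was at 79.11, 79.51 and 59.83 CPM with LIF2i, 63.49, 59.17 and 65.30 CPM without it, and 62.65, 74.00 and 74.22 CPM with CK666. These ranges overlapped, and the log2 fold change on withdrawal was -0.21 (95% interval -0.54 to 0.12, adjusted p = 0.28 in edgeR). In TPM, the deposited levels corrected for transcript length, Yap1 made up 74.0% ± 3.12 (SD, n = 3) of the sum of both genes with LIF2i, 83.6% ± 2.73 without it and 80.8% ± 4.54 with CK666. Of Yap1 TPM, the coding transcripts Yap1-201 and Yap1-202 held 41.9% ± 14.3 and 48.5% ± 14.9 with LIF2i and 43.1% ± 4.15 and 48.9% ± 3.87 without it. With LIF2i the libraries went different ways, since Yap1-202 held 65.0% in replicate 1 and 36.1% in replicate 3, so no preference between these transcripts can be read.

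**Figure D1:**
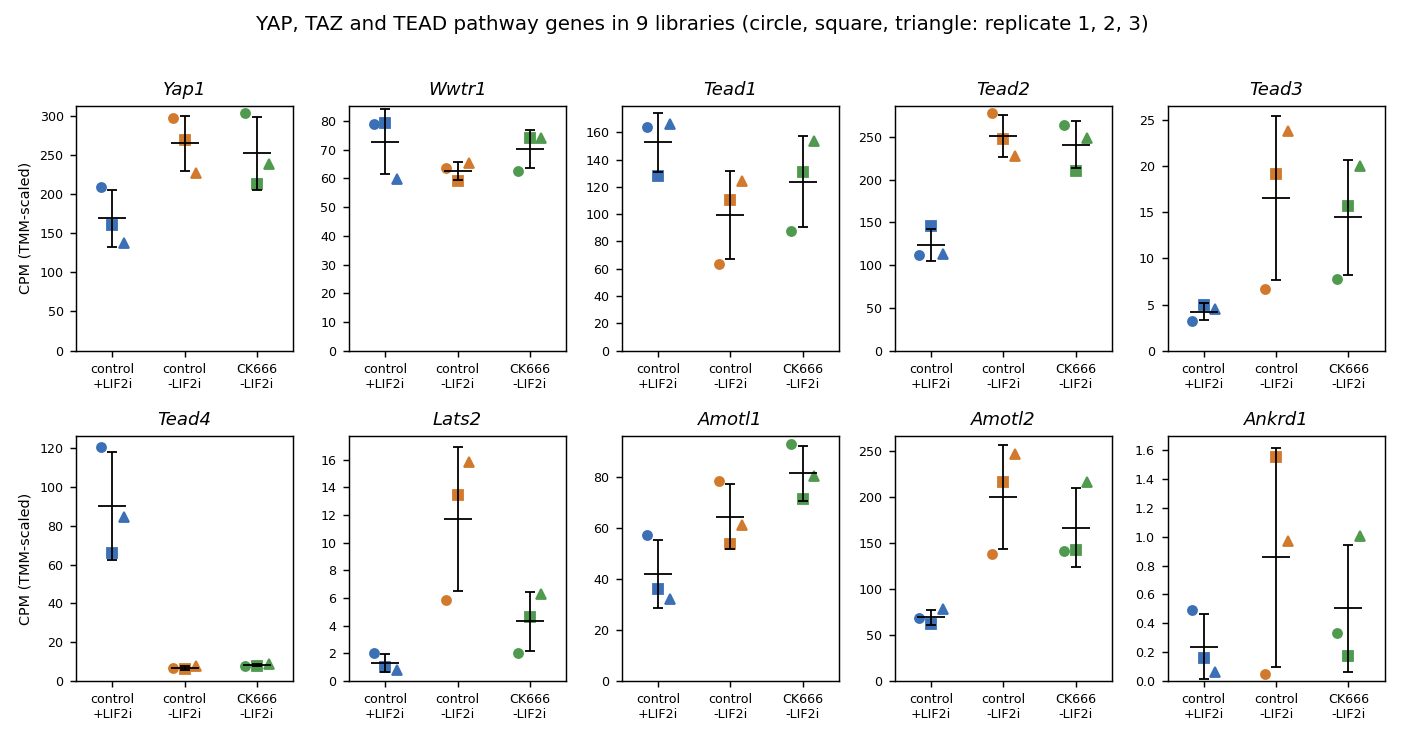
TMM-scaled CPM of the 10 genes in each library (circle, square and triangle for replicates 1, 2 and 3; bars, mean ± SD, n = 3; each panel has its own axis from 0). Tead4 is at 65.9 to 120.6 CPM with LIF2i and at 6.02 to 8.88 CPM in all 6 libraries without it.

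The TEAD genes moved in different directions. Tead4 (chr6:128224288-128300823, minus strand), the TEAD of the trophectoderm program, was at 120.58, 65.87 and 84.37 CPM with LIF2i, at 6.42, 6.02 and 7.77 CPM without it, and at 7.87, 7.76 and 8.88 CPM with CK666. Every library without LIF2i was far below every library with it, whether or not CK666 was present. Tead4 fell on withdrawal by 3.72 on the log2 scale (SE 0.21, adjusted p = 4.5e-06 in edgeR), which is 13.2-fold lower. The coding transcripts Tead4-201 and Tead4-203 kept similar parts of its TPM, with 64.0% ± 3.52 and 34.9% ± 4.68 before and 63.2% ± 10.7 and 34.3% ± 7.43 after withdrawal (SD, n = 3).

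Tead2 (chr7:45215753-45233644, plus strand), expressed from early embryonic stages, was at 111.44, 145.37 and 113.53 CPM with LIF2i, 277.46, 247.37 and 227.92 CPM without it, and 263.25, 210.11 and 248.37 CPM with CK666. It rose on withdrawal with no overlap between the groups, by a log2 fold change of 1.02 (SE 0.15, adjusted p = 0.00064 in edgeR). Tead3 (chr17:28331671-28350817, minus strand) was at 3.24, 4.97 and 4.50 CPM with LIF2i. It was at 6.66, 19.20 and 23.80 CPM without LIF2i and at 7.72, 15.63 and 20.00 CPM with CK666. It rose by a log2 fold change of 1.81 (SE 0.27, adjusted p = 0.00068 in edgeR), and replicate 1 was the lowest library of each group.

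Tead1 (chr7:112679318-112906807, plus strand) was at 163.92, 127.92 and 165.71 CPM with LIF2i, 63.35, 110.66 and 124.45 CPM without it, and 87.72, 130.62 and 153.42 CPM with CK666. The groups with and without LIF2i did not overlap, but only narrowly. Tead1 fell by 0.68 on the log2 scale (SE 0.20, adjusted p = 0.025 in edgeR). Replicate 1 showed the widest gap, and without that replicate the log2 fold change was -0.29 (adjusted p = 0.051). The Tead1 call was also lost without replicate 3, at -0.81 (adjusted p = 0.077), and without the withdrawn control library of replicate 1 alone, at -0.44 (adjusted p = 0.16).

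Expressed as shares of the summed TPM of Tead1 to Tead4, the part of Tead4 shrank and that of Tead2 grew on withdrawal. Tead4 held 23.5% ± 5.19 of this sum with LIF2i, 1.48% ± 0.208 without it and 1.79% ± 0.0312 with CK666 (SD, n = 3). Tead2 held 54.9%, 68.6% and 54.2% in the 3 libraries with LIF2i and 92.2%, 85.8% and 83.2% in the 3 withdrawn controls. With CK666 the Tead2 shares were 88.9%, 81.4% and 82.7%. Tead1 went from 15.9% ± 2.89 to 7.55% ± 2.23 and stood at 10.1% ± 2.35 with CK666, and Tead3 held at most 6.04% in any library. The sum itself overlapped between the groups, at 231.9 ± 89.9 TPM with LIF2i, 279.4 ± 45.6 TPM without it and 267.1 ± 41.6 TPM with CK666. These shares are descriptions, since 3 libraries against 3 cannot go below p = 0.10 in an exact two-sided permutation test. Counted in reads without the correction for length, Tead1 held a larger part, 41.1% with LIF2i and 26.4% without it, and Tead2 held 33.7% and 67.4%.

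**Figure D2:**
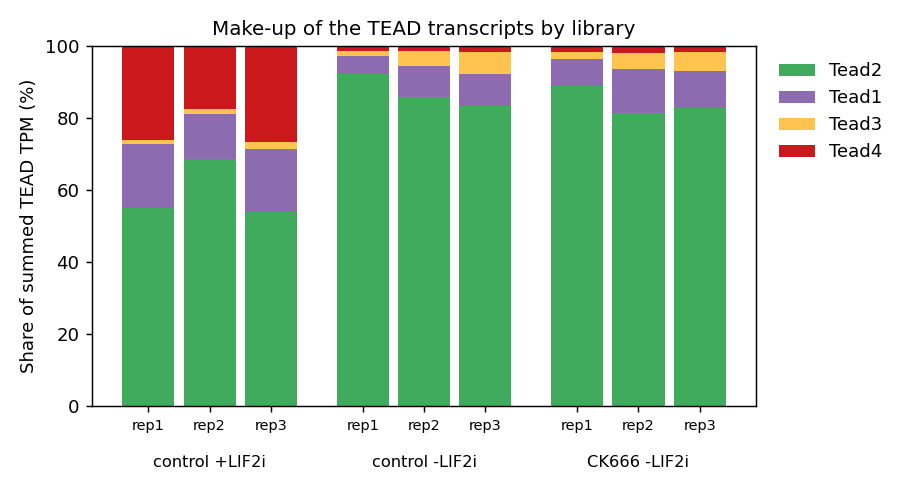
Share of each TEAD gene (percent) in the summed TPM of Tead1 to Tead4, 1 bar per library. Tead4 takes 23.5% on average with LIF2i and under 2% in both groups without it, where Tead2 takes 81.4% to 92.2%.

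The regulators Lats2, Amotl1 and Amotl2 rose on withdrawal. Lats2 (chr14:57689662-57758388, minus strand), one of the kinases that phosphorylate YAP and TAZ, was at 2.01, 0.99 and 0.79 CPM with LIF2i (41, 19 and 13 counts). It was at 5.84, 13.44 and 15.81 CPM without LIF2i and at 1.99, 4.64 and 6.26 CPM with CK666. The withdrawn controls were all above the self-renewing libraries, and the log2 fold change was 3.01 (SE 0.55, adjusted p = 0.0023 in edgeR). Without the +LIF2i library of replicate 1 it was 4.05, and without that of replicate 3 it was 2.47. Its paralog Lats1 did not pass the test (log2 fold change 0.21, adjusted p = 0.34 in edgeR). By TPM, Lats2 made up 11.1% ± 4.04 of the sum of Lats1 and Lats2 with LIF2i and 44.2% ± 16.8 without it. Of the exonic bases of Lats2, 42.4% (2955 of 6971) are also annotated on the same strand in the gene model Gm49361, so reads could be divided between them. Gm49361 had 26 counts in the withdrawn control of replicate 1 and 58 in the CK666 library of replicate 1, and 0 in the other 7 libraries.

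Amotl2 (chr9:102716672-102733418, plus strand), an angiomotin and a target of YAP, was at 68.55, 61.74 and 77.75 CPM with LIF2i, 137.74, 217.16 and 246.86 CPM without it, and 140.94, 143.08 and 216.25 CPM with CK666. The log2 fold change on withdrawal was 1.5 (SE 0.16, adjusted p = 0.00013 in edgeR), with no overlap between the groups. Amotl1 (chr9:14541966-14645056, minus strand) was at 57.20, 36.07 and 32.13 CPM with LIF2i, 78.40, 53.51 and 61.04 CPM without it, and 92.65, 71.23 and 80.15 CPM with CK666. Replicate 1 was the highest library of each group, so the ranges before and after withdrawal overlapped while each of the 3 pairs rose, by a log2 fold change of 0.64 (SE 0.14, adjusted p = 0.0056 in edgeR). Without replicate 3 its log2 fold change was 0.51 (adjusted p = 0.084). The coding transcript Amotl1-206 held 46.7%, 19.6% and 36.5% of Amotl1 TPM with LIF2i and 5.3%, 3.5% and 2.8% without it. With CK666 it held 24.0%, 2.8% and 5.9%, so that replicate 1 lay within the range of the libraries with LIF2i. Amotl1-201, the longer coding transcript, held 62.4% ± 8.85 and 74.4% ± 11.8 (SD, n = 3), so these shares overlapped.

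Ankrd1 (chr19:36111961-36120099, minus strand), a nuclear ankyrin-repeat protein and a standard YAP target in other cells, was near the detection floor. It had 10, 3 and 1 counts with LIF2i, 1, 30 and 18 counts without it, and 7, 3 and 18 counts with CK666. The log2 fold change on withdrawal was 1.53 with a 95% interval of -1.36 to 4.42 (adjusted p = 0.38 in edgeR). Replicate 1 went the other way from replicates 2 and 3. Without replicate 2 the log2 fold change was 0.16 (adjusted p = 0.96 in edgeR). Without only the withdrawn control of replicate 2 it was 0.037 (adjusted p = 0.99 in edgeR). Without replicate 1 the log2 fold change was 3.46 (adjusted p = 0.018), the only pass in 18 alternatives. In that fit 8 of the 10 genes were again called, Ankrd1 in place of Tead1, where 44.8% of the genes tested then were called. At these counts no shift between its transcripts can be read.

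The order of the levels by TPM shows the same shift. Tead2 was the highest of the 10 genes in each group, at 135.4 ± 45.6 TPM with LIF2i and 244.7 ± 53.6 TPM without it (SD, n = 3), followed by Yap1 at 66.0 ± 26.2 and 103.2 ± 26.8 TPM. With LIF2i the next places were held by Tead4 (55.7 ± 28.8 TPM), Tead1 (37.9 ± 19.6), Amotl2 (34.0 ± 11) and Wwtr1 (22.6 ± 6.34). The ranges of neighbours overlapped, but within each of the 3 libraries Yap1 was above Tead4, Tead4 above Tead1 and Amotl2 above Wwtr1, while Tead1 was above Amotl2 in 1 of 3. Without LIF2i, Amotl2 came by its mean after Yap1 at 81.8 ± 9.98 TPM, separate from Tead1 at 20.4 ± 3.41 TPM. The ranges of Yap1 and Amotl2 overlapped, and Yap1 was above Amotl2 in 2 of 3 libraries. Tead4, at 4.13 ± 0.745 TPM, then ranked by its mean below Tead3, but their ranges overlapped and Tead3 was above in 2 of 3 libraries. Tead4 also overlapped Lats2 at 3.86 ± 1.86 TPM. Ankrd1 was the lowest in each group, at 0.242 ± 0.270 TPM with LIF2i and 0.652 ± 0.559 TPM without it.

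The promoters of several of these genes hold the TEAD core motif, and the letters around it are shown because TEAD proteins bind that core. The motif searched was GGAATG on both strands (CATTCC on the other), in windows from 250 bases before to 50 bases after each start in a RefSeq promoter table (GRCm38.p6). Of the 8 genes with a window in the table, 6 held it: Yap1, Wwtr1, Tead3, Lats2, Amotl2 and Ankrd1. Tead2 and Amotl1 had windows without it, and Tead1 and Tead4 were not in the table. By gene, 16.6% of all 27025 genes in that table held it. By window it was found in 8 of 12, and in 14.7% of all 32851 windows. The 8 windows include 2 of Wwtr1 that overlap and hold the same copy. The AP-1 motif TGANTCA (its own reverse complement) and the CArG box of SRF were in 0 of the 12 windows, against 7.81% and 1.63% of all windows. Capitals mark the motif in the following stretches, each given 5′ to 3′ on the gene's strand. Those of Yap1 (chr9:8004695-8004774, minus), Wwtr1 (chr3:57576004-57576083, minus) and Tead3 (chr17:28350945-28351024, minus) lie outside annotated exons. Shorter stretches are shown for Lats2 (chr14:57746102-57746131, minus), Amotl2 (chr9:102717727-102717756, plus) and Ankrd1 (chr19:36120037-36120066 and chr19:36119950-36119979, minus), where the window overlaps an annotated exon.
Yap1: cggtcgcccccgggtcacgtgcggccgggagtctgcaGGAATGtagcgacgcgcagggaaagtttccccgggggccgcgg
Wwtr1: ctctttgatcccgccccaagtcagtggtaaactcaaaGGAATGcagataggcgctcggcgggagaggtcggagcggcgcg
Tead3: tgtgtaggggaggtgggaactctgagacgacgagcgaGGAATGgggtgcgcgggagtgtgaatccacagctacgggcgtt
Lats2: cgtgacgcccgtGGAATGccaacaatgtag
Amotl2: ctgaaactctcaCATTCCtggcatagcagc
Ankrd1: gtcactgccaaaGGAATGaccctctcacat
Ankrd1: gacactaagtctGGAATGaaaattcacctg
The motif starts 141 bases before the Yap1 start, 182 before one Tead3 start and 65 before that of Amotl2, and 5 bases into the Lats2 transcript. Tead3 has 3 more copies around its other start, at 28350600, of which 2 are on the opposite strand, 123 and 114 bases upstream, and 1 begins 3 bases downstream. Both Ankrd1 copies, 210 and 123 bases upstream of the RefSeq start, are on the gene's own strand, while that of Amotl2 is on the opposite one. The Ankrd1 and Amotl2 stretches shown lie wholly in annotated exons, inside the annotated spans of these genes. The same holds for the 3 further Tead3 copies, so upstream refers here to the RefSeq start only. A match is a description of the letters and not a measured binding site. The 6 genes with the motif include Wwtr1 and Ankrd1, which did not pass the test on withdrawal, and Tead2 and Amotl1, which rose, had none in these windows.

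The second question of the design was whether Arp2/3 inhibition alters what withdrawal does, so the CK666 -LIF2i libraries were set against the withdrawn controls. None of the 10 genes passed edgeR's test, where 2.05% of the tested genes did (1.15% higher and 0.894% lower). At an unadjusted p under 0.05 there were 2, Lats2 and Amotl1, where 2890 of the 14648 tested genes were, a share close to that of the 10. DESeq2 called 1 of the 10 genes and 1136 of all, and limma-voom 0 of the 10 and 553 of all. The median log2 fold change of the 10 genes was -0.07, and that of all tested genes was 0.017. This comparison and the withdrawal comparison use the same control -LIF2i libraries, so their values are not independent.

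For the effectors and the TEADs no CK666 difference passed the test. The 95% intervals of the log2 difference were -0.35 to 0.19 for Yap1, -0.16 to 0.49 for Wwtr1 and -0.39 to 0.27 for Tead2. The point values were -0.08, 0.16 and -0.06. For Tead3, Tead1 and Tead4 they were wider, from -0.70 to 0.42, -0.13 to 0.78 and -0.17 to 0.73. Tead4 and Tead1 were higher with CK666 in 3 of 3 pairs, by log2 differences of 0.28 (SE 0.20, adjusted p = 0.48 in edgeR) and 0.33 (SE 0.20, adjusted p = 0.41 in edgeR). These intervals do not show equality. The upper bound for Tead4, 0.73, lay far from the 3.72 by which it fell on withdrawal, while that for Tead1, 0.78, lay above the 0.68 by which it fell.

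Among the inhibitors, Lats2 was lower with CK666 in 3 of 3 pairs, at 1.99 against 5.84, 4.64 against 13.44 and 6.26 against 15.81 CPM, although the group ranges overlapped. The log2 difference was -1.45 (SE 0.49, 95% interval -2.55 to -0.35), which is 2.74-fold lower, but the edgeR adjusted p was 0.14. It passed in 4 of 20 other settings: with DESeq2 (-1.48, adjusted p = 0.045), with only the 6 libraries compared (-1.48, adjusted p = 0.0047), without replicate 1 (-1.45, adjusted p = 0.0086) and without the control +LIF2i library of replicate 1 (-1.48, adjusted p = 0.0048). By TPM the order in replicate 3 was turned, with Lats2 at 5.93 TPM with CK666 and 5.55 TPM without. In that CK666 library 64.6% of Lats2 TPM lay on a noncoding transcript model of 219 bases that held 0% in the other 8 libraries. A correction for effective length gave -0.68 for Lats2, and over all 20 settings the log2 difference ranged from -1.79 to -0.68.

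Amotl1 was higher with CK666 in 3 of 3 pairs, by 0.35 (SE 0.14, adjusted p = 0.20 in edgeR). Amotl2 was lower in 2 of 3 pairs, by a log2 difference of -0.26 (SE 0.16, adjusted p = 0.40 in edgeR). Thus the 2 angiomotin-like genes had point values of opposite sign, and neither passed the test. Ankrd1 had too few counts for a statement, with a log2 difference of -0.72 and a 95% interval of -3.35 to 1.91. Without replicate 1 the count of all called genes rose from 300 to 1811, or 12.3% of the genes tested then, and 1 of the 10 genes, Lats2, was among them.

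**Figure D3:**
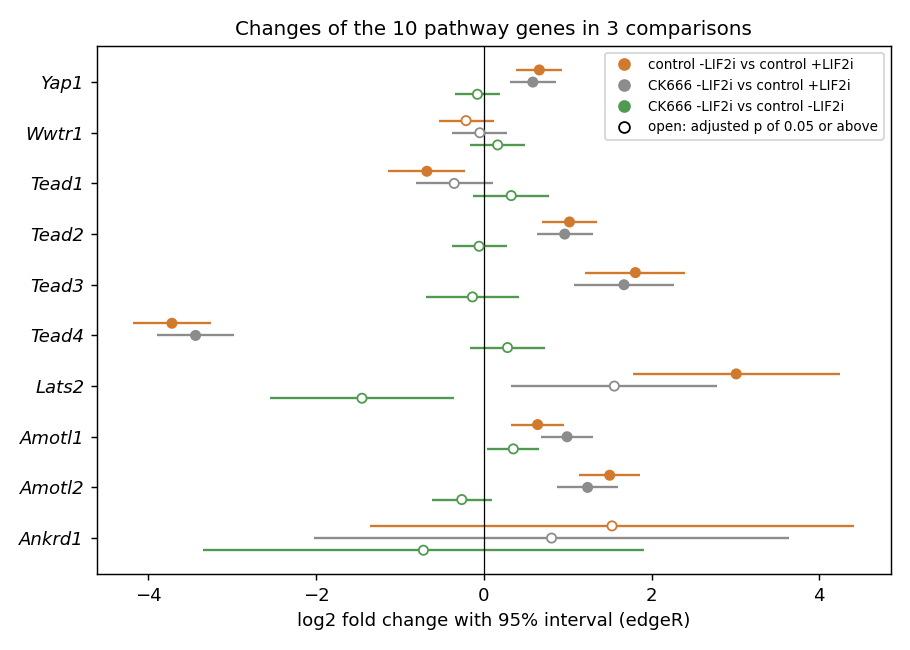
Log2 fold change of the 10 genes in the 3 comparisons with 95% intervals from edgeR's fit over all 9 libraries (filled, adjusted p under 0.05; open, 0.05 or above). The CK666 values (green) are all open, with Lats2 the most negative at -1.45, while Tead4 lies at -3.72 on withdrawal.

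Against the self-renewing libraries, the CK666 cells showed 6 called genes of 10, where 36.9% of tested genes were called: 5 rose (19.8% of tested genes did), Yap1, Tead2, Tead3, Amotl1 and Amotl2, and 1 fell (17.1% of tested genes did), Tead4. Tead4 fell by 3.44 on the log2 scale (SE 0.20, adjusted p = 7.6e-06 in edgeR), and the log2 fold changes of those that rose were 0.58 for Yap1, 0.96 for Tead2, 1.67 for Tead3, 0.99 for Amotl1 and 1.24 for Amotl2. The Yap1 call was lost without the replicate block (0.58, adjusted p = 0.0972) and without replicate 3 (0.48, adjusted p = 0.107). Amotl1 had its highest mean level in the CK666 group. Lats2 lay at the threshold, with a log2 fold change of 1.56 (SE 0.55, adjusted p = 0.0502 in edgeR). It passed in 8 of 20 alternatives, among them DESeq2 (1.56, adjusted p = 0.0101), limma-voom (1.8, 0.0163), the length correction (2.15, 0.0181) and, in a setting chosen after the data were seen, its counts summed with those of Gm49361 (2.00, 0.00702). Single libraries decided its size: without the +LIF2i library of replicate 1 the log2 fold change was 2.56 (adjusted p = 0.000152), and without that of replicate 3 it was 1.00 (adjusted p = 0.206). Tead1 was at -0.35 (95% interval -0.81 to 0.10), Wwtr1 at -0.05 (-0.38 to 0.28) and Ankrd1 at 0.81 (-2.02 to 3.64). Without replicate 1, 7 of the 10 genes were called, where 41.6% of the genes tested then were. These values share the CK666 and the +LIF2i libraries with the comparisons above.

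The other genes of the Hippo cascade were taken from a list of 24, of which 23 passed the filter on low counts (Fat4 did not). On withdrawal 11 rose and 6 fell, with a median log2 fold change of 0.33, where 21.1% of all tested genes rose and 19.7% fell. Leaving out replicate 2 or replicate 3 lowered the 11 to 5 or 6, and the rises under 0.70 named here, of Stk4, Mob1b, Taok3, Wwc1, Wwc2 and Wtip, were those that lost the call in one or both cases, as did the falls of Mob1a and Taok1 in both. Among the kinases, Stk4 rose by 0.43 while Stk3, the gene for the other MST kinase, fell by 0.91 on the log2 scale. Their adaptor Sav1 was at -0.13 (adjusted p = 0.47). The LATS coactivators split as well, with Mob1b higher by 0.48 and Mob1a lower by 0.49 on the log2 scale. The related kinase Stk38 fell by 1.41, and Map4k4 and Taok1, upstream kinases of the cascade, fell by 0.70 and 0.41 on the log2 scale, while Taok3 rose by 0.69.

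Among the other listed genes, Dchs1, an atypical cadherin, rose by a log2 fold change of 3.90 (SE 0.46, adjusted p = 0.00018 in edgeR). Its counts were low, at 14, 4 and 2 with LIF2i and 157, 41 and 99 without it. Amot, the founding angiomotin, was at 2.01, 3.24 and 3.95 CPM with LIF2i, 56.50, 29.58 and 51.00 CPM without it, and 42.60, 17.89 and 26.25 CPM with CK666. It rose by a log2 fold change of 3.83 (SE 0.34, adjusted p = 4.1e-05 in edgeR), so all 3 angiomotin genes rose on withdrawal. By TPM, Amot went from 1.93% ± 0.945 to 12.3% ± 5.54 of the angiomotin sum (SD, n = 3), and Amotl2 stayed the main one at 77.6% ± 4.34 and 75.6% ± 9.99. The YAP-binding phosphatase Ptpn14 rose by 2.61. The 3 AJUBA-family genes, whose products bind LATS, also rose, with log2 fold changes of 2.57 for Ajuba, 0.97 for Limd1 and 0.65 for Wtip. Frmd6 fell by 1.26 on the log2 scale, Wwc1 and Wwc2 rose by 0.55 and 0.48, and Nf2 was at -0.34 (adjusted p = 0.065).

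With CK666, 1 of these 23 genes was called, where 2.05% of all tested genes were, so the count is near that of all genes. Map4k4, which had fallen on withdrawal from 429.16, 425.20 and 443.37 to 254.02, 272.69 and 272.49 CPM, was at 347.51, 388.13 and 423.01 CPM with CK666. That is a log2 difference of 0.53 (SE 0.11, adjusted p = 0.043 in edgeR), with no overlap between the CK666 and control -LIF2i libraries. The call was lost in 11 of the other settings, with adjusted p-values up to 0.49, while the log2 difference kept its sign. Without replicate 1, where 12.3% of all tested genes were called, 7 of the 23 were: Map4k4 (0.55), Taok3 (1.011) and Wwc2 (0.48) were higher, and Amot (-0.87), Mob1b (-0.61), Wwc1 (-0.54) and Ptpn14 (-0.47) were lower. Against the +LIF2i libraries, 8 of the 23 rose and 4 fell, where 19.8% of all tested genes rose and 17.1% fell, so the 4 are near the share of all genes. Of the TEAD cofactors of the Vestigial-like family, 2 of 4 were tested, and Vgll3 rose on withdrawal by 2.69 (adjusted p = 0.0038 in edgeR) while Vgll4 was at 0.17. Vgll3 had 25, 14 and 6 counts with LIF2i, and its value was 3.58 without the +LIF2i library of replicate 1 and 2.1 without that of replicate 3. With CK666 0 of these 2 were called by edgeR, at an unadjusted p as well.

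As a readout of the pathway, a signature of YAP and TAZ target genes known from cancer cells was followed without its members among the 10 genes, which left 19 genes, 16 of them tested. On withdrawal 8 rose and 3 fell, with a median log2 fold change of 1.20. The 3 are near the 19.7% of all tested genes that fell, and 21.1% of all tested genes rose. Ccn1, a secreted matrix protein and a standard YAP target, was at 3.34, 3.08 and 2.92 CPM with LIF2i, 38.11, 124.36 and 201.90 CPM without it, and 25.78, 35.22 and 110.30 CPM with CK666. It rose by a log2 fold change of 4.96 (SE 0.50, adjusted p = 0.00019 in edgeR). Ccn2, its relative, was at 9.58, 5.59 and 7.41 CPM with LIF2i, 145.03, 156.85 and 157.16 CPM without it, and 120.04, 74.28 and 98.86 CPM with CK666. It rose by 4.38 (SE 0.19, adjusted p = 1.8e-06 in edgeR), and its 3 withdrawn controls were much closer to each other than those of Ccn1.

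Igfbp3, which binds insulin-like growth factors, rose by 4.74, Fjx1 by 3.08, Crim1 by 1.60 and Arhgef17 by 1.29 on the log2 scale. With the length correction Crim1 was at 0.93 (adjusted p = 0.0539). Ptpn14, which is also in the Hippo list, and Nt5e, at 0 to 4 counts with LIF2i, made up the 8. The 3 that fell were Myof, Gadd45b and Dock5, but Gadd45b passed in only 6 of 20 alternatives and Dock5 in 17, and only Myof was left without the withdrawn control of replicate 1. Myof, a membrane-repair protein, went from 473.78, 280.09 and 270.67 CPM to 3.33, 12.30 and 13.76 CPM, a log2 fold change of -5.28 (SE 0.59, adjusted p = 0.00054 in edgeR). Genes of the signature thus moved in both directions. Over all alternatives Myof ranged from -5.85 to -4.37, Ccn1 from 4.40 to 5.74 and Nt5e from 3.78 to 7.96, so the order of their sizes was not fixed.

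With CK666, 0 of the 16 target genes were called by edgeR, 6 had an unadjusted p under 0.05 (2890 of the 14648 tested genes had), and DESeq2 and limma-voom each called 1. The median log2 difference was -0.18, with 10 of 16 values below 0. Ccn2 was lower in 3 of 3 pairs with no overlap, by a log2 difference of -0.68 (SE 0.16, 95% interval -1.05 to -0.32, adjusted p = 0.062 in edgeR). Without replicate 1, where 12.3% of all tested genes were called, 3 of the 16 were: Ccn2 (-0.89, adjusted p = 0.0033), Fjx1 (-1.03, 0.0167) and Ptpn14 (-0.47, 0.026). Ccn1 was lower in 3 of 3 pairs, at -1.10 (SE 0.41, adjusted p = 0.19 in edgeR). Crim1 was higher, at 0.56 (adjusted p = 0.14 in edgeR). Against the +LIF2i libraries 8 target genes rose and 2 fell, where 19.8% and 17.1% of all tested genes did, with Ccn1 at 3.85 and Ccn2 at 3.70. Over all alternatives Ccn1 ranged there from 3.20 to 4.54 and Ccn2 from 3.59 to 3.845.

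**Figure D4:**
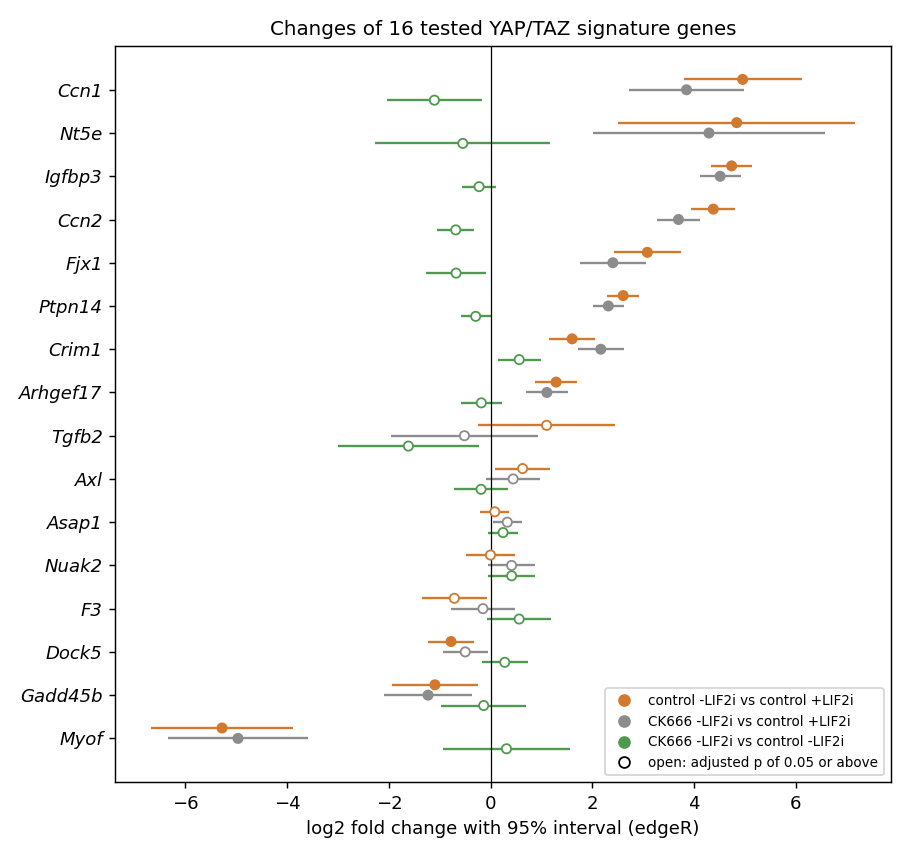
Log2 fold change of the 16 tested target genes in the 3 comparisons with 95% intervals from edgeR's fit (filled, adjusted p under 0.05; open, 0.05 or above), ordered by the change on withdrawal. Values on withdrawal run from 4.96 for Ccn1 to -5.28 for Myof, and the CK666 values (green) are all open.

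Markers of other cell types were read beside these changes. The trophectoderm list, with 6 of 8 genes tested, summed to 126 to 149 CPM with LIF2i, 162 to 400 CPM without it and 118 to 384 CPM with CK666. Of the factors of that lineage, Cdx2 and Elf5 were at or under 0.92 and 0.26 CPM, and Tfap2c fell on withdrawal by 4.30 on the log2 scale. Eomes was at 14.8, 7.005 and 6.86 CPM with LIF2i, 12.1, 6.70 and 12.7 CPM without it and 5.73, 4.93 and 2.35 CPM with CK666, and Gata3 was at most 1.23, 2.64 and 4.52 CPM in these groups. Neither of the latter passed on withdrawal (adjusted p = 0.66 and 0.27 in edgeR). The higher sums came with keratin genes such as Krt18, at 3.34, 12.5 and 9.48 CPM with LIF2i and 92.1, 272.4 and 180.0 CPM without it. Fibroblast markers, with 6 of 7 genes tested, summed to 6.01 to 9.39 CPM with LIF2i, 29.6 to 33.6 CPM without it and 17.8 to 27.4 CPM with CK666. Thy1 made up most of the sum without LIF2i, at 21.5, 20.6 and 21.4 CPM. It was at 5.1, 4.0 and 3.5 CPM with LIF2i and 9.9, 10.5 and 20.2 CPM with CK666. No other gene of that list was above 6.56 CPM in any library. Primitive endoderm markers summed to at most 18.8 CPM, primitive streak and mesoderm markers to at most 5.24 CPM and neural markers to at most 52.5 CPM. No list was at 0 throughout, and the part of these cell types in the changes of the pathway genes was not tested.

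The genes whose pattern over the 9 libraries was closest to that of each changed gene were found by the root-mean-square difference of centred log2 CPM, among 9490 protein-coding genes. For Tead4, whose own SD was 1.69 on this scale, they were Dlgap3 (0.32), Gjb5 (0.35) and the naive pluripotency marker Zfp42 (0.39). For Amotl2 they were Arhgef17 (0.20), Pls3 (0.20) and Nab1 (0.21), the first of which is in the target list. For Lats2 the closest, Plekhg2 (0.49), Krt8 (0.50) and Cnn2 (0.52), were less near. For Yap1 they were Camsap3, Zfyve16 and Capn2, and for Tead2 they were Mtch1, Slc25a23 and Klhl22.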

How the data were processed

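The authors deposited 1 table per library which, per the file headers, gives estimated counts, effective length and TPM (scaled by the authors within a library) per Ensembl transcript. The submitters' processing notes name FastQC, cutadapt 1.8.1, kallisto and sleuth and the builds GRCh38 and mm10, without roles; strand handling is not given in the sources used here. With GENCODE M21 (GRCm38), 116640 of 119414 transcripts (97.7%) were matched to 35896 genes, and the 2774 others held 0.895% to 1.08% of the counts of a library. Deposited estimated counts were summed per gene and rounded, deposited TPM were summed, and deposited effective length served as a correction in 1 alternative. Library totals of 16894327 to 22550952 limit precision, and the floor of 3 counts covers counting error only.

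Genes were tested in R 4.3.3 with edgeR 4.0.16 (robust quasi-likelihood, TMM, filterByExpr, 14648 genes, 4 residual degrees of freedom, Benjamini-Hochberg over all tested genes). All 9 libraries entered one fit. SE and 95% intervals were derived from the test statistic, and the scripts were tested on simulated data. The replicate number was a block because the design text calls the biological replicates paired. Deviations from group means of same-numbered libraries correlated at 0.30 to 0.65 (9 pairs), and those of different-numbered ones at -0.53 to 0.29 (18 pairs, median -0.37). Deviations within a group sum to 0, so the negative values are not separate support for the pairing. Alternatives were no block, RLE scaling, DESeq2 1.42.0, voom in limma 3.58.1, no filter, the length correction, only the groups compared, leaving out each replicate or library and, added after the data were seen, Lats2 summed with Gm49361, which is one of the 20 alternatives counted but bears only on Lats2. The named genes are the 10 members, genes of the fixed lists and, per called member, the 3 protein-coding genes with the nearest pattern (mean log2 CPM of at least 3, prior count 2). Members, lists and tests were chosen with earlier results of these data known.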

Additional observations from a re-analysis of the deposited data

How the results depend on the processing

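On withdrawal, Tead2, Tead3, Tead4, Lats2 and Amotl2 passed under all 20 alternatives with their direction kept, Yap1 under 19, Amotl1 under 18 and Tead1 under 14. One of the 20, Lats2 summed with Gm49361, leaves the other members as in the reported fit. Without the replicate block, 3509 genes were called on withdrawal, 0 with CK666 (edgeR; 1 of the 10 genes had an unadjusted p under 0.05) and 2966 for CK666 against +LIF2i; on withdrawal 1 member was lower, 5 Hippo genes were higher and 1 target gene was lower. With CK666 against the withdrawn controls, all called genes numbered 1136 with DESeq2, 553 with limma-voom, 565 without a filter, 149 with the length correction and 1367 with only the 2 groups compared. The Hippo count higher with CK666 was 0 without the block and with the length correction and 2 with DESeq2, and that lower was 1 with DESeq2 and 2 with only the 2 groups compared. In that last fit, 1 member and 2 target genes were lower and 1 target gene was higher with CK666, and 1 member was lower on withdrawal. DESeq2, limma-voom and no filter each gave 1 target gene lower with CK666, and DESeq2 gave 1 member lower. Against +LIF2i, 1 target gene was lower without the block, with limma-voom, without a filter and with only the 2 groups compared.

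When replicates or libraries were left out, all called genes ranged from 0 to 1811 with CK666, 3099 to 6588 on withdrawal and 2413 to 6129 for CK666 against +LIF2i. Members lower were 1 to 2 on withdrawal and 0 to 1 with CK666. Hippo genes higher were 5 to 11 on withdrawal and 0 to 3 with CK666, and lower with CK666 0 to 4. Target genes lower were 1 to 4 on withdrawal, 0 to 3 with CK666 and 1 to 3 against +LIF2i, and higher with CK666 0 to 1. Vestigial-like genes higher against +LIF2i were 0 to 1. Log2 values not past the threshold changed sign: with CK666, Yap1 ranged from -0.17 to 0.0329, Tead2 from -0.15 to 0.0877, Tead3 from -0.39 to 0.0483 (0.0127 with the length correction) and Ankrd1 from -1.87 to 0.56; against +LIF2i, Wwtr1 ranged from -0.22 to 0.10 and Ankrd1 from -0.10 to 2.72. The cause was not tested.

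By estimated counts, the TEAD shares with LIF2i, without it and with CK666 were 41.1%, 26.4% and 31.8% for Tead1 and 33.7%, 67.4% and 62.4% for Tead2; Tead4 had 1.8% without LIF2i and 2.11% with CK666 (2.00% by TPM of coding transcripts), and Yap1 had 69.7% with LIF2i and 80.7% without it. Low counts limit Ankrd1 and, with LIF2i, Lats2, Tead3, Dchs1, Vgll3 and Nt5e.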
